A study of Mus musculus with 4 samples.

Results

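This account follows 9 genes that store, move or recycle iron and haem through the cells of the injured spinal cord of aged mice. They are the ferritin chains Fth1 (ENSMUSG00000024661) and Ftl1 (ENSMUSG00000050708), haem oxygenase Hmox1 (ENSMUSG00000005413), the metal transporters Slc11a1 (ENSMUSG00000026177) and Slc11a2 (ENSMUSG00000023030), the iron exporter Slc40a1 (ENSMUSG00000025993), the ferroxidase Cp (ENSMUSG00000003617), the transferrin receptor Tfrc (ENSMUSG00000022797) and the haemoglobin scavenger receptor Cd163 (ENSMUSG00000008845). They were taken by symbol from the 53647 genes listed in the count tables, and each symbol matched 1 gene ID. Cells came from 2 mm of cord around the lesion of C57BL/6J mice, 28 days after injury. The mice had received either IgG or an antibody to CD8 (Anti-CD8), a surface protein of cytotoxic T cells, and each group had 2 libraries of droplet-based 3′ single-cell RNA sequencing. All mice were aged and injured, and uninjured or young cord is not analysed here. The number of mice in a library and their age in months are not stated in the labels, so the tests below measure the spread between libraries, which may be technical.

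Iron released from dying cells and from red cells that leak into a lesion is taken up by phagocytes. Haem oxygenase opens the haem ring and frees its iron, ferritin holds the iron in a hollow shell of heavy and light chains, and ferroportin, the product of Slc40a1, lets it out of the cell with the help of a ferroxidase such as ceruloplasmin. Cells that need iron bring in transferrin through the transferrin receptor, and brain and cord vessels are known for high levels of that receptor because iron enters the nervous system across them.

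Much of this system is controlled after transcription. Iron regulatory proteins bind a short RNA hairpin, the iron-responsive element. In iron-poor cells they block translation of messages that carry it in the 5′ UTR and protect messages that carry it in the 3′ UTR from decay. The hairpins are shown because an RNA level, which is what was measured here, is only part of what sets the protein for these genes. Transcripts of the GENCODE M21 annotation (GRCm38) were searched on the transcript strand for a loop CAGTGN closed by 5 paired bases, with an unpaired C 5 bases upstream. A match was found in 4 of the 9 genes, against 222 of 21877 protein-coding genes (1.01%). Each match is 29 bases long, and capitals mark the loop. The 4 matches of Tfrc are told apart by their first base in the transcript.

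Fth1, 5′ UTR: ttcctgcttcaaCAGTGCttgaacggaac

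Ftl1, 5′ UTR: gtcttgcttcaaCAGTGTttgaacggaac

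Slc40a1, 5′ UTR: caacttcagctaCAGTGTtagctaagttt

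Tfrc, 3′ UTR, base 3321: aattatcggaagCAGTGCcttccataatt

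Tfrc, 3′ UTR, base 3700: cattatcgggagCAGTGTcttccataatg

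Tfrc, 3′ UTR, base 3765: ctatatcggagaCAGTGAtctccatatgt

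Tfrc, 3′ UTR, base 3812: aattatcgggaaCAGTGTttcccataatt

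The storage genes and the exporter carried the hairpin ahead of the coding sequence, and Tfrc carried all 4 of its matches behind it. A match is a description of these letters. The other 5 genes had no match to this pattern in the transcripts searched. That does not show that they lack an element, since a hairpin paired in another way would be missed by this pattern.

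The libraries held 152457679 to 170539226 UMIs (unique molecular identifiers, each counted as 1 captured RNA molecule), and 27695 cells were analysed. Libraries shared 7 to 23 barcodes with each other, at most 0.349% of the smaller library. Clusters were made without the 9 genes and named "-like" from marker genes. Microglia-like cells were 42.0% of cells on average, a myeloid class led by Spp1, Gpnmb and Lpl (called Spp1-high) 25.8%, macrophage-like cells 5.91%, endothelial-like cells 7.03% and T-cell-like cells 5.74%. Clusters 12, 17, 21, 22 and 23 were left unnamed. Cluster 12 is a myeloid cluster of low depth (a median of 3277 UMIs per cell against 18267 in microglia-like cells), and cluster 17 carries endothelial genes together with the pericyte gene Rgs5. The share of T-cell-like cells with a Cd8a or Cd8b1 UMI, which checks the labels, was 85.7% and 74.3% in the IgG libraries and 40.4% and 37.6% in the Anti-CD8 libraries. Haemoglobin RNA was rare: the libraries held 1717, 5, 85 and 59 haemoglobin UMIs, of which a single cell held 1465 in IgG replicate 1 and 61 in Anti-CD8 replicate 1.

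Values below are CPM, the UMIs of a gene divided by all UMIs of a class in a library and scaled by the usual CPM factor. They are listed as IgG 1, IgG 2, Anti-CD8 1 and Anti-CD8 2, and mean ± SD is over these 4 libraries. Since the classes were built from the same cells, differences between classes are described by the range over libraries and are not tested. The 3′ assay counts transcript ends, so a level does not depend on transcript length.

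Ferritin heavy chain carries the ferroxidase site that loads iron into the shell. Fth1 stood at 12426, 11884, 12012 and 12108 CPM in microglia-like cells (12107 ± 231). In Spp1-high cells it was 21864, 23222, 24072 and 22451 CPM (22902 ± 958), 1.89 times the microglia-like level on average and 1.76 to 2.00 times within a library. Macrophage-like cells held 24472, 25476, 22201 and 25641 CPM (24447 ± 1584), and their range overlapped that of Spp1-high cells. All 4 microglia-like values lay below every value of these other myeloid classes. Outside the myeloid cells Fth1 was lower, at 7616 ± 1023 CPM in mural-like cells (pericytes and smooth muscle), 4221 ± 417 in ependymal-like cells, 2761 ± 67.2 in endothelial-like cells, 2372 ± 288 in T-cell-like cells and 2131 ± 630 in neuron-like cells.

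Ferritin light chain, which helps the iron core to form, followed the heavy chain. Ftl1 was 5239 ± 145 CPM in microglia-like cells, 9167 ± 372 in Spp1-high cells and 10808 ± 439 in macrophage-like cells. The Spp1-high level was 1.75 times the microglia-like level (1.71 to 1.81 within a library). Here the ranges of Spp1-high and macrophage-like cells did not overlap. Cluster 12 had the highest level of both chains, with Fth1 at 27257 ± 2858 and Ftl1 at 13137 ± 1030 CPM, and Ftl1 was among its 10 leading genes although the members were kept out of the clustering. Together the chains made up 1.73% ± 0.0305 of all UMIs in microglia-like cells, 3.21% ± 0.125 in Spp1-high cells, 3.53% ± 0.174 in macrophage-like cells and 4.04% ± 0.357 in cluster 12, against 0.418% ± 0.00985 in endothelial-like cells.

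**Figure D1:**
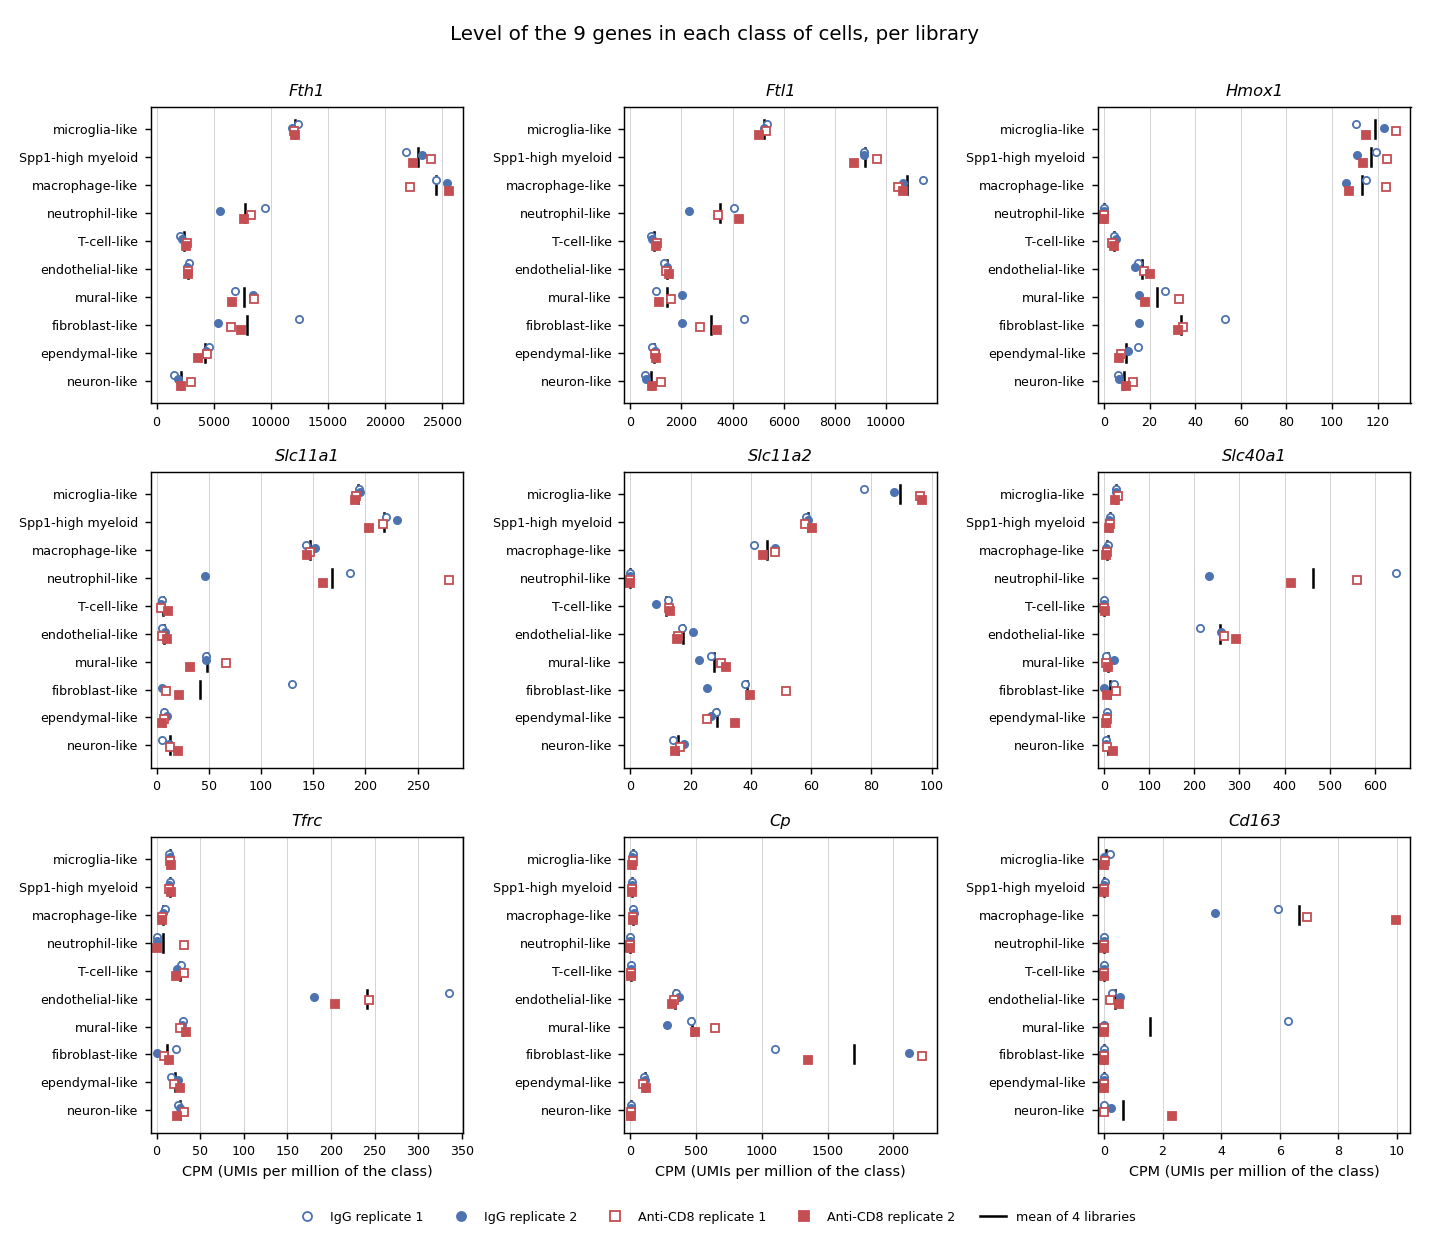
Each panel plots 1 of the 9 genes, with classes on the vertical axis and CPM, as defined above, on the linear horizontal axis. Points are the 4 libraries, with colour and shape marking the antibody and open or filled symbols the replicate. Fth1 and Ftl1 are highest in the myeloid classes, with the 4 microglia-like Fth1 values between 11884 and 12426, whereas Tfrc is highest in endothelial-like cells, Cp in fibroblast-like, mural-like and endothelial-like cells, and Slc40a1 in endothelial-like cells and the 16 neutrophil-like cells.

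Within the myeloid cells ferritin formed a gradient over 13 clusters. It was lowest in cluster 1, where Fth1 was 7642, 8195, 7610 and 7635 CPM (7771 ± 283). That cluster was led by the inflammatory genes Ccl3, Ccl4, Tnf and Il1a together with Crybb1 and P2ry12, genes of homeostatic microglia. The other cluster led by Crybb1, P2ry12, Siglech and Tmem119 (cluster 8) held 9302 CPM. Levels in between were 11445 CPM in cluster 11 (Il12b, Il1a, Gpr84), 13195 in cluster 14 (interferon-induced Ifit2, Ifit3, Mx1) and 15490 in cluster 5 (Olr1, Cd14, Il1b, Tlr2). Cluster 3, led by Apoc4, Apoc1, Apoe and Ms4a7, held 16193 CPM and cluster 0, led by Il12b, Olr1, Cxcl2, Lpl and Spp1, 18932. Inflammatory genes thus led clusters at the low end, in the middle and higher up. The top of the named clusters was cluster 2, led by Mmp12, Gpnmb, Fabp4 and Spp1, a gene set known from lipid-laden phagocytes. Its Fth1 level was 27128 ± 1358 CPM, 3.49 times that of cluster 1 (3.37 to 3.67 within a library), and its Ftl1 level of 11449 ± 457 CPM was 2.86 times that of cluster 1 (2.81 to 2.88). Over the 13 clusters the 2 chains had a Pearson r of 0.97 on the log2 scale. Fth1 had an r of -0.92 with P2ry12 and 0.81 with Gpnmb. These are descriptions over clusters that share libraries and differ in depth, with no p.

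The balance of the chains was steadier than their level. The ratio of Fth1 to Ftl1 UMIs was 2.31 ± 0.07 in microglia-like cells, 2.50 ± 0.08 in Spp1-high cells, 2.26 ± 0.15 in macrophage-like cells and 1.95 ± 0.14 in endothelial-like cells. Among the myeloid clusters it ran from 1.88 in cluster 9 (led by Kcnj2 and Ptchd1) and 1.94 in cluster 1 to 2.71 in cluster 4 (Apoc4, Ms4a7, Lyz2). It was far more heavy-chain rich in ependymal-like cells, the ciliated lining of the central canal, at 5.48, 4.50, 4.47 and 3.64 (4.52 ± 0.75). The highest ratios were in the smooth-muscle genes' cluster (cluster 25, led by Acta2, Tagln and Myh11), at 11.9, 4.66, 7.77 and 11.7 (8.99 ± 3.44), while the pericyte cluster beside it (cluster 24, led by Atp13a5, Abcc9 and Kcnj8) had 1.96 ± 0.42. All values of the ependymal-like and smooth-muscle clusters lay above all values of the microglia-like, Spp1-high, macrophage-like and endothelial-like classes. Reads of near-identical ferritin copies could blur such a ratio. The listed copy Ftl1-ps1 held UMIs equal to 0.709% of those of Ftl1, and the Fth1 and second Ftl1 copies at most 0.0043% of their parents, although reads that match several copies may have been left out of the counts.

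**Figure D2:**
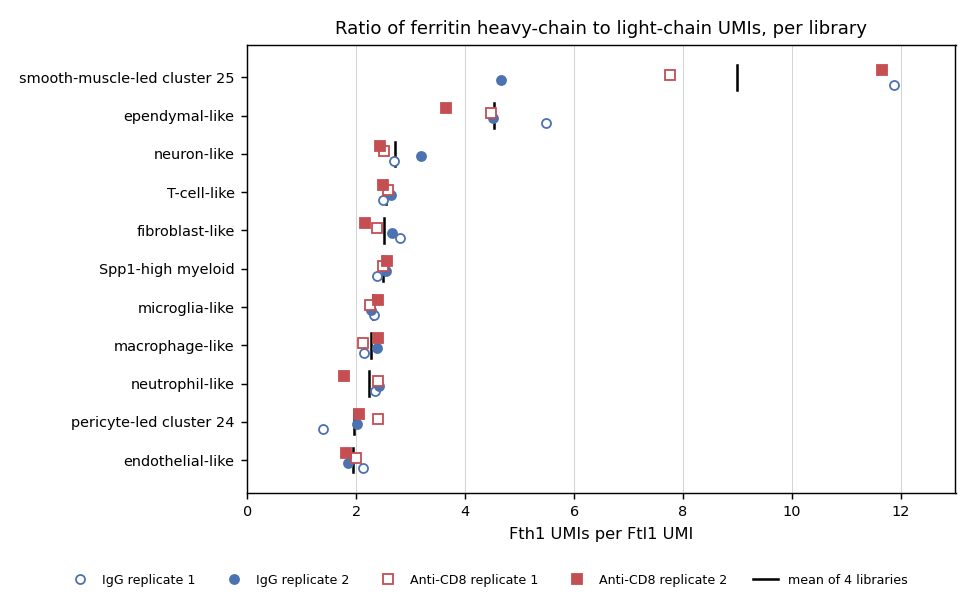
The horizontal axis is the number of Fth1 UMIs per Ftl1 UMI on a linear scale from 0, the rows are classes and clusters, and each point is 1 of the 4 libraries. Microglia-like cells sit between 2.26 and 2.41, ependymal-like cells between 3.64 and 5.48, and the smooth-muscle cluster between 4.66 and 11.9.

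Ferritin RNA of myeloid cells can reach other droplets as free RNA. A scale set on the microglia markers found in each class was used to estimate how much of a level free or attached myeloid RNA would give, an estimate chosen after seeing the data. For Fth1 it came to 28.7% of the observed level in endothelial-like cells, 28.2% in ependymal-like cells and 58.2% in neuron-like cells, and for Ftl1 to 80.9% in mural-like cells. The levels of ferritin outside the myeloid classes are printed without subtracting this estimate, and the light chain in mural-like cells was close to it.

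Hmox1, which degrades haem, was a myeloid gene at an even level. It was 110, 123, 128 and 115 CPM in microglia-like cells (119 ± 7.87), 117 ± 5.99 in Spp1-high cells and 113 ± 8.02 in macrophage-like cells, with overlapping ranges. The classes that differed in ferritin therefore overlapped in Hmox1. Between myeloid clusters it did vary, from 165 ± 14.3 CPM in cluster 1 and 162 ± 14.4 in cluster 9 to 82.5 ± 0.895 in cluster 3 and 79.7 ± 2.32 in cluster 18 (Birc5, Mki67 and Top2a, genes of dividing cells). Cluster 2, the ferritin-richest named cluster, had 136 ± 9.40 CPM, and cluster 1 was 1.21 times that level (1.13 to 1.28). After each cell was thinned to 2000 UMIs, Hmox1 was found in 20.5% of microglia-like cells and 0.794% of T-cell-like cells, the latter serving as the background. Endothelial-like cells held 16.6 ± 2.89 CPM, of which the myeloid estimate accounted for 31.0%. In T-cell-like, neuron-like and ependymal-like cells that estimate was 98.2%, 92.0% and 78.3% of the observed level.

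Slc11a1, also called Nramp1, pumps metal out of the phagosome of macrophages, and Slc11a2 (DMT1) moves iron out of endosomes after transferrin uptake. The former was highest in Spp1-high cells, at 220, 231, 217 and 204 CPM (218 ± 11.1), then microglia-like cells at 194, 195, 191 and 190 (193 ± 2.36) and macrophage-like cells at 147 ± 4.12, with no overlap between these 3 ranges. Its highest cluster was cluster 0, at 248 ± 13.9 CPM, followed by cluster 5 at 232 ± 1.98 with ranges that overlapped. Outside the myeloid classes the myeloid RNA estimate was 125% of the observed Slc11a1 level in endothelial-like, 181% in ependymal-like and 116% in T-cell-like cells. It was 64.5% in mural-like cells (48.1 CPM observed against 31.0, and above the estimate in all 4 libraries), 59.7% in cluster 17 and 4.72% in the neutrophil-like cluster. Slc11a2 had another order. It was highest in microglia-like cells at 77.7, 87.6, 96.1 and 96.9 CPM (89.6 ± 8.97), lower in Spp1-high cells (58.9 ± 1.08) and lowest of these classes in macrophage-like cells (45.3 ± 3.33), 1.98 times below the microglia-like level (1.82 to 2.19). In cluster 1 it reached 137 ± 6.13 CPM, 2.48 times its level in cluster 2 (2.36 to 2.66). Over the 13 myeloid clusters Slc11a2 had an r of -0.85 with Fth1, so the endosomal transporter was high where ferritin was low.

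The exporter Slc40a1 was mainly a vessel gene. Endothelial-like cells held 212, 260, 265 and 292 CPM (257 ± 33.4) and cluster 17 held 203 ± 15.8. Microglia-like cells had 27.4 ± 3.07 CPM, so the endothelial-like level was 9.39 times higher, and all endothelial-like values lay above all myeloid values. In the thinned cells it was found in 31.5%, 35.1%, 38.6% and 34.7% of endothelial-like cells and in 5.54% of microglia-like cells. Among the myeloid classes Slc40a1 ran opposite to ferritin. The level was 27.4 CPM in microglia-like cells, 12.7 ± 0.963 in Spp1-high cells and 6.33 ± 1.16 in macrophage-like cells, without overlap, so that microglia-like cells had 4.33 times the macrophage-like level (3.36 to 5.18). Cluster 8 (Crybb1, P2ry12, Siglech, Tmem119) had 41.7 ± 3.47 CPM against 7.23 ± 0.655 in cluster 0 (Il12b, Olr1, Lpl, Spp1), a ratio of 5.76 (4.88 to 6.76), and r with Fth1 over the 13 clusters was -0.72. A neutrophil-like cluster of only 16 cells had the highest level of all classes, with 48 UMIs of Slc40a1 in 12 of them.

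**Figure D3:**
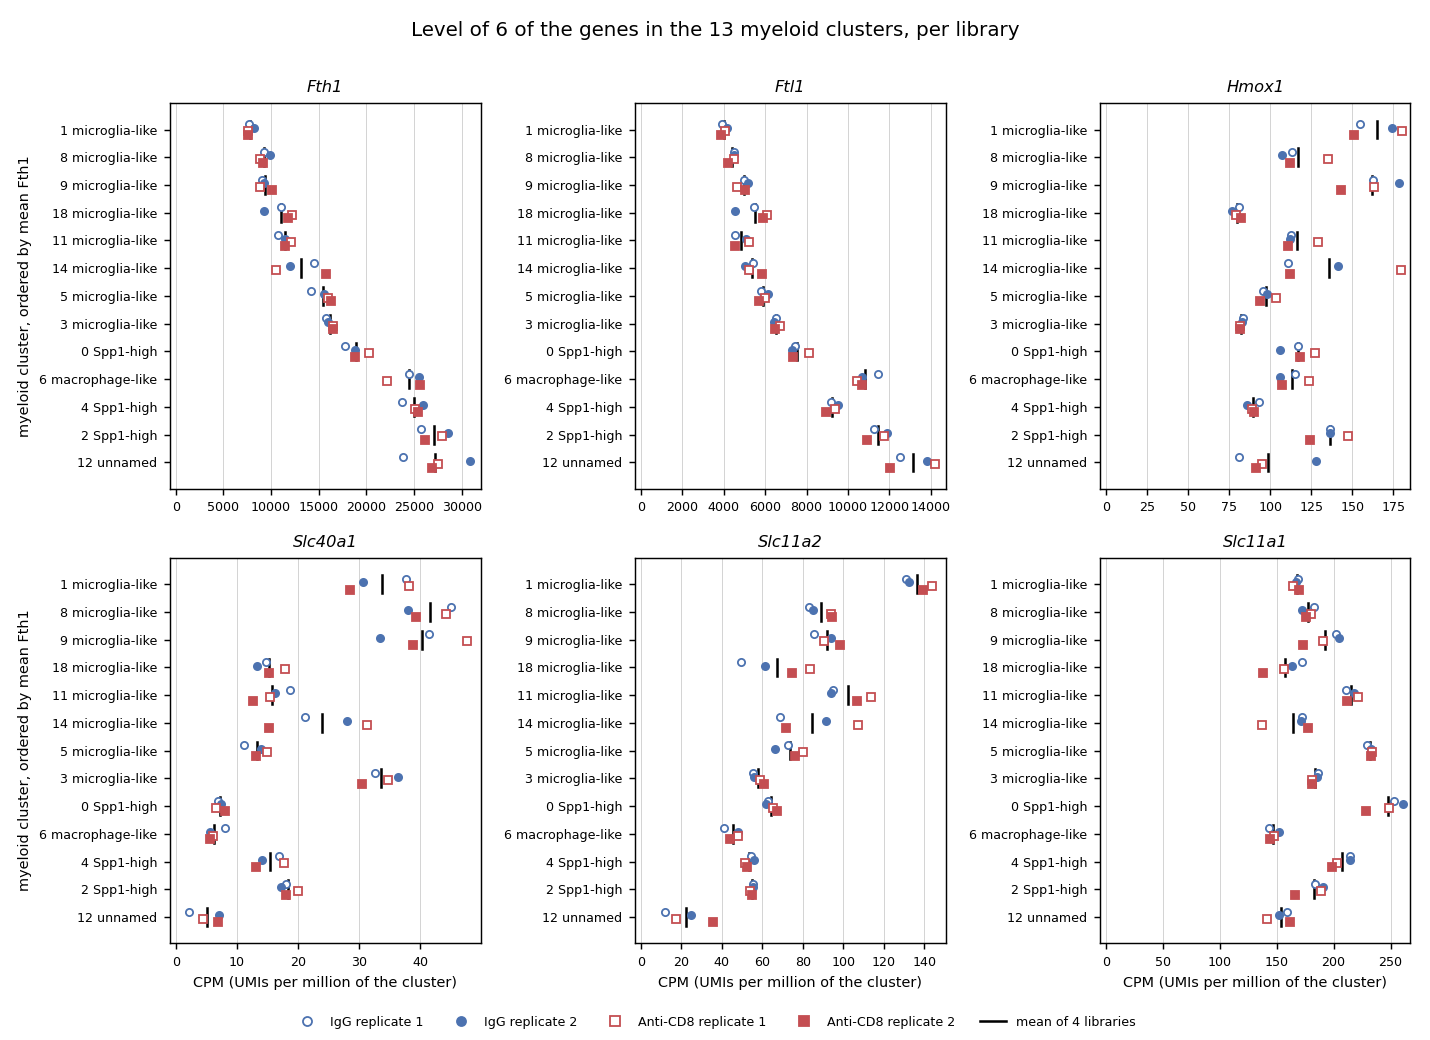
Each panel plots 1 of 6 genes over the 13 myeloid clusters, which are ordered by mean Fth1 on the vertical axis, with CPM of the cluster on a linear horizontal axis and 1 point per library. Fth1 and Ftl1 are low and high in the same clusters, from 7771 to 27257 CPM on average for Fth1, while Slc40a1 and Slc11a2 are high in the clusters with little Fth1, with 33.8 and 137 CPM in cluster 1.

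Ceruloplasmin, the copper enzyme that oxidises iron as it leaves through ferroportin, came from cells of the vessel wall and stroma. Cp was 351, 369, 332 and 317 CPM in endothelial-like cells (342 ± 22.7), 461, 281, 642 and 493 in mural-like cells (469 ± 148) and 447 ± 28.4 in cluster 17. A fibroblast-like cluster of 46 cells had 1103, 2118, 2219 and 1350 CPM (1697 ± 555), 4.96 times the endothelial-like level (3.14 to 6.68) and above every value of the other classes. Ependymal-like cells held 108 ± 8.72 CPM. Myeloid cells had little, with 22.5 ± 2.43 CPM in macrophage-like cells, 17.9 ± 2.33 in microglia-like cells and 12.1 ± 1.80 in Spp1-high cells. In thinned cells Cp was found in 42.2% of endothelial-like, 49.8% of mural-like and 15.7% of ependymal-like cells, against 0.761% of T-cell-like cells. Astrocytes, a known source of Cp in the nervous system, were not recovered as a class of their own, and cluster 21, which mixes astrocyte and oligodendrocyte genes at a median of 2325 UMIs per cell, had 126 ± 72.7 CPM.

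The transferrin receptor was highest in vessels too. Tfrc was 335, 180, 244 and 204 CPM in endothelial-like cells (241 ± 68.0), 16.2 times the microglia-like level of 14.9 ± 0.949. Its spread between libraries was wide, with IgG replicate 1 highest, and the same library was high in the thinned cells (44.9% of endothelial-like cells with a UMI, against 28.0%, 34.4% and 27.4%). T-cell-like cells held 26.4 ± 4.21 CPM and neuron-like cells 26.6 ± 3.23. Within the myeloid clusters Tfrc was low throughout, from 25.8 ± 1.27 CPM in cluster 9 to 7.28 ± 1.81 in the macrophage-like cluster, a ratio of 3.54 (2.86 to 4.36). Of the endothelial-like levels of Tfrc, Slc40a1 and Cp, the myeloid RNA estimate made up at most 0.323%.

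Vessel cells were clustered again, after seeing these levels, to find which of them carried the 3 genes. The 2231 vessel cells with at least 2000 UMIs gave 9 subclusters, called here by number and leading genes. Cp was highest in subcluster 6, a pericyte-like group (Saa3 and Kcnj8 among its leading genes), at 645 ± 60.6 CPM. Next was subcluster 2, whose range overlapped that of subcluster 6, led by Nos1, Vegfc, Sema3g and Gkn3, of which the last 2 are arterial endothelial genes, at 563, 586, 558 and 561 CPM (567 ± 12.8). That was 1.89 times the level of subcluster 0, led by Sele and Lrg1 (1.69 to 1.99), and 2.10 times that of subcluster 1 (1.90 to 2.51). Tfrc and Slc40a1 were on average lower in subcluster 2 than in subclusters 0, 1, 4 and 5. The order among those other groups was not the reverse of that of Cp. Tfrc was highest in subcluster 4, led by Cxcl10 and Ifit2, at 405, 257, 315 and 279 CPM (314 ± 65.4), and lower in subcluster 2 at 154 ± 34.9, a ratio of 2.04 (1.91 to 2.24). The ratio held in every library although the ranges of Tfrc in 0, 1, 4 and 5 overlapped. Slc40a1 was highest in subclusters 0 and 4, at 299 ± 46.3 and 294 ± 50.4 CPM, against 173 ± 43.0 in subcluster 2, a ratio of 1.70 for subcluster 4 (1.25 to 2.20). The group led by Acta2 and Tagln (subcluster 8) had the least Tfrc (29.0 ± 5.50) and Slc40a1 (3.14 ± 3.74), but the most Fth1 of the vessel cells, at 9549 ± 1111 CPM with Ftl1 at 713 ± 110. Subcluster 7 also held leukocyte genes (Cd74, Cybb, Cd86), and its Fth1 level of 6773 ± 748 CPM went with Spp1 at 1092 CPM, which was 62.7 to 142 CPM in the other subclusters. The part of that RNA in its Fth1 was not tested.

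**Figure D4:**
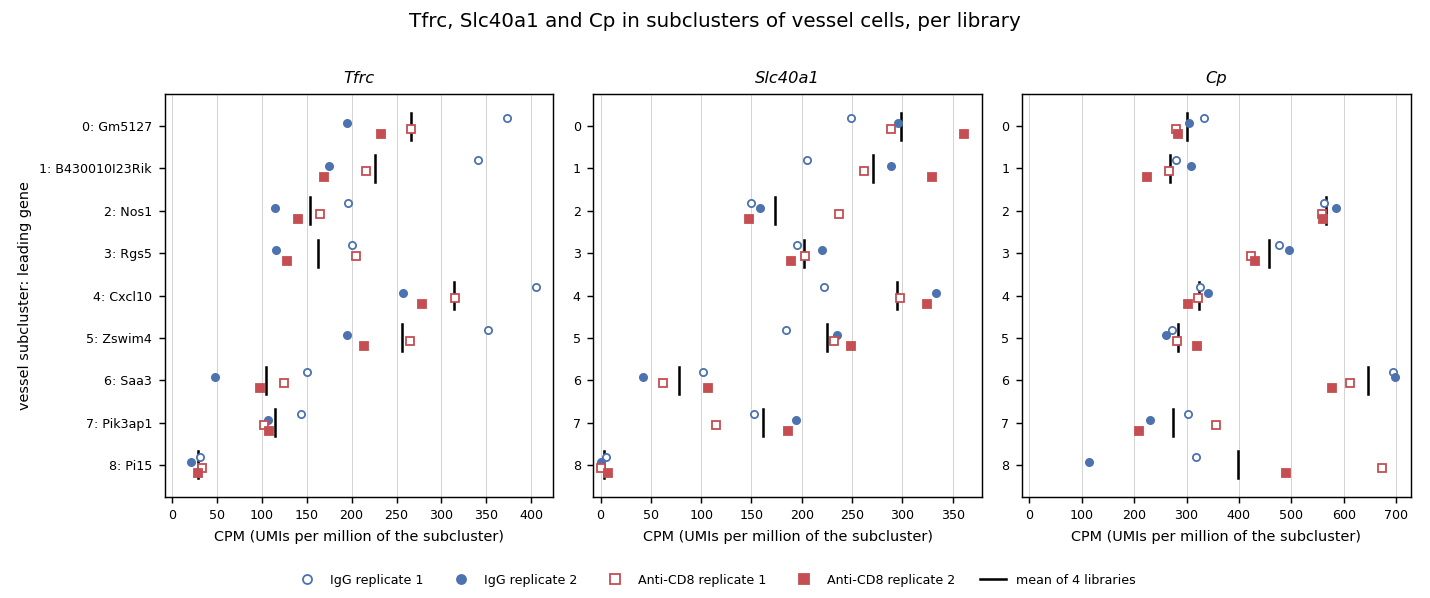
Panels show Tfrc, Slc40a1 and Cp over the 9 vessel subclusters (vertical axis, by number and leading gene), with CPM of the subcluster on a linear horizontal axis and 1 point per library. Cp stands to the right in subclusters 2 and 6, with the 4 points of subcluster 2 between 558 and 586, while Tfrc and Slc40a1 are higher in 0 and 4 than in 2.

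Cd163, the receptor through which macrophages clear haemoglobin bound to haptoglobin, was nearly confined to a small set of macrophage-like cells. Its level in that class was 5.95, 3.81, 6.94 and 9.97 CPM (6.67 ± 2.56), and 217 of all 276 Cd163 UMIs (78.6%) lay there. They came from 59 of 1652 cells, or 3.64%, 2.67%, 3.47% and 4.32% of the class in the 4 libraries, and the 10 richest cells held 103 of them. No Cd163 UMI was found in 1537 T-cell-like cells, which allows a share of cells with a UMI of up to 0.195%. The 59 cells were then set beside the other 1593, a split made after seeing the data, with no test because the cells were chosen by their counts. Pooled over libraries they had 9292 CPM of Fth1 against 24946, with no overlap between the libraries (7704 to 9876 against 22464 to 26054), and 6356 of Ftl1 against 10874. They had more Hmox1, at 301 CPM (222 to 351 by library) against 108 (101 to 120), and more Slc40a1, at 56.9 (27.9 to 81.4) against 4.98 (3.86 to 6.41). These are 222 and 42 UMIs. Tfrc was 36.6 against 6.40 CPM and Cp 121 against 20.3, while Slc11a1, at 145 against 147, was alike. The same cells carried Mrc1 (1476 against 57.8 CPM), Pf4 (1026 against 30.3), F13a1 (702 against 49.9) and Cbr2 (125 against 1.62), genes of perivascular and meningeal macrophages. Lyve1 and Folr2, also genes of such macrophages, varied widely between libraries in the 59 cells. Pooled, Lyve1 was 35.2 against 0.0647 CPM (0 to 98.7 by library) and Folr2 80.0 against 2.07 (7.40 to 158). Gpnmb (133 against 3119 CPM) and Spp1 (232 against 2319) were lower in the 59 cells. No Fabp4 UMI was found there, against 94.8 CPM. The class means given above are mostly those of the 1593 cells without a Cd163 UMI.

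For each gene the 3 genes with the most similar pattern were ranked among 12338 genes, by Pearson r of log2(mean CPM + 1) over the 29 clusters, as a description with no p since clusters share libraries and differ in depth. The 3 nearest to Fth1 were Ftl1 (0.94), Creg1 (0.94) and Arl11 (0.92), and those nearest to Ftl1 were Creg1 (0.96), Uap1l1 (0.95) and Hexa (0.95). Hmox1 was nearest to Pla2g15 (0.97), Cndp2 (0.96) and Idua (0.96), and Slc11a1 to Sirpa (0.96), Cd14 (0.96) and Mpeg1 (0.95). Slc11a2 was nearest to Dcakd, Mtdh and Rmi1 (0.94 each). Vessel genes stood beside Tfrc (Acer2 0.93, Degs2 0.89, Icam2 0.88), and Slc40a1 was nearest to Ceacam1 (0.92), Mtmr6 (0.87) and Slc6a6 (0.83). Cp was nearest to Kank2 (0.94), Efemp2 (0.94) and Lamb2 (0.93). Cd163 had the loosest neighbours, with Mrc1 (0.86), H2-Eb1 (0.69) and H2-Aa (0.64).

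The other genes of iron and haem handling, 64 in 5 lists, differed in where they were highest. The genes named in this paragraph were chosen after their values were seen. Of 13 genes of haem uptake, export and breakdown, 6 were highest in macrophage-like cells among 8 classes compared, including the biliverdin reductases Blvrb (182 ± 19.5 CPM against 96.7 ± 7.01 in microglia-like cells) and Blvra (62.0 ± 2.64 against 41.2 ± 1.70) and the second haem oxygenase Hmox2 (105 ± 4.81 against 76.0 ± 3.13). The haem exporter Flvcr1 was highest in ependymal-like cells, at 453 ± 68.3 CPM against at most 56.5 ± 2.99 in the other classes, and the related Flvcr2 in endothelial-like cells, at 66.9 ± 3.90 against at most 10.8 ± 7.65. Of 20 genes of iron uptake and movement, 7 were highest in endothelial-like cells, among them the metal importer Slc39a8 (110 ± 9.25 CPM against 11.9 ± 0.570 in microglia-like cells) and the ferritin receptor Ncoa4 (104 ± 3.53 against 25.7 ± 1.46). Alas1, the rate-limiting enzyme of haem synthesis, and 2 more of 8 synthesis genes were also highest there (Alas1 360 ± 26.5 CPM against 103 ± 3.78 in microglia-like cells). Transferrin itself, Trf, was a myeloid transcript in this lesion, at 802 ± 61.4 CPM in Spp1-high cells, 713 ± 44.8 in microglia-like cells and 25.9 ± 7.94 in endothelial-like cells. The cystine carrier Slc7a11, which guards cells against lipid peroxidation, was highest in Spp1-high cells at 192 ± 21.3 CPM, against 121 ± 11.1 in microglia-like and 5.00 ± 2.80 in endothelial-like cells.

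The antibody comparison asked what the antibody to CD8 changed. UMI sums per library were fitted over all genes of a class with edgeR's quasi-likelihood test, and a call needed a Benjamini-Hochberg adjusted p under 0.05. None of the 9 genes was called in any of 13 classes. Few genes of any kind were called in the larger classes, with 0.0335% of 17901 in microglia-like cells, 0.0% of 16637 in Spp1-high cells, 0.0% of 12358 in macrophage-like cells, 0.0% of 14052 in endothelial-like cells and 0.00701% of 14266 in ependymal-like cells. None was called in any of 12 myeloid clusters, where 0.133% of all tests were called and 9 of 97 tests of members had an unadjusted p under 0.05, against 7.12% of all tests. The response of no member was called as different from that in microglia-like cells in Spp1-high cells (0.0609% of all genes called), macrophage-like cells (0.0118%) or endothelial-like cells (0.026%), with 5 of 26 tests of members at an unadjusted p under 0.05, against 5.61% of all. At an unadjusted p under 0.05 stood 1 of 8 members in microglia-like cells (8.44% of all genes), 1 of 8 in Spp1-high cells (6.64%), 2 of 9 in macrophage-like cells (4.98%) and 1 of 8 in endothelial-like cells (4.48%). Among the classes, Cd163 passed the expression filter in macrophage-like cells alone. By DESeq2, 1 of the 9 genes was called in 1 class, and the share of all genes called by DESeq2 is not given here.

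Ferritin levels were close between the groups where cells were many. The log2 fold change of Fth1, Anti-CD8 over IgG, was -0.06 in microglia-like cells (95% interval -0.32 to 0.20) and -0.002 in Spp1-high cells (-0.18 to 0.18), and that of Ftl1 was -0.08 and -0.04. Changes within these intervals were not detectable with 2 libraries against 2. Over the members tested the median was 0.012 in microglia-like cells and -0.002 in Spp1-high cells, beside -0.0006 and -0.0005 over all genes.

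The members with an unadjusted p under 0.05 in the larger classes follow, none of them called. Slc11a2 in microglia-like cells was higher in both Anti-CD8 libraries than in both IgG libraries (96.1 and 96.9 against 77.7 and 87.6 CPM), with a log2 fold change of 0.18 (SE 0.065, edgeR adjusted p = 0.570). The class was made up differently in each library. Cluster 1, where Slc11a2 is highest, held 13.3%, 24.5%, 24.5% and 27.1% of its cells, and the interferon cluster 14 held 15.1%, 2.79%, 1.49% and 3.003%. Within cluster 1 the change was 0.09 (SE 0.076, edgeR adjusted p = 0.998). Among the other microglia-like clusters tested, which leave out cluster 14, the change was above 0 in each. It ran from 0.04 (SE 0.105) in cluster 9 to 0.21 (SE 0.085, edgeR adjusted p = 0.417) in cluster 11 and 0.52 (SE 0.167, edgeR adjusted p = 0.402) in cluster 18. In Spp1-high cells it was -0.03 (SE 0.056), and the difference of the 2 responses was -0.23 (SE 0.062, edgeR adjusted p = 0.406, and 0.00302 without IgG replicate 2). Slc11a1 in Spp1-high cells was -0.15 (SE 0.060, edgeR adjusted p = 0.741). In macrophage-like cells Cd163 was higher in the Anti-CD8 libraries, at 6.94 and 9.97 against 5.95 and 3.81 CPM, with a log2 fold change of 0.80 (95% interval 0.14 to 1.45, edgeR adjusted p = 0.946), and Tfrc was lower, at 5.83 and 5.90 against 9.65 and 7.73 CPM (-0.60, SE 0.22, edgeR adjusted p = 0.946). Hmox1 in endothelial-like cells was 14.9 and 13.7 CPM in the IgG libraries and 17.7 and 20.2 in the Anti-CD8 libraries, a log2 fold change of 0.39 (95% interval 0.05 to 0.73, edgeR adjusted p = 0.998). In ependymal-like cells it was 15.002 and 10.3 against 7.56 and 6.57 CPM (-0.85, edgeR adjusted p = 0.9997). The myeloid RNA estimate for Hmox1 there was 6.64 and 8.55 CPM in the IgG libraries and 7.14 and 8.56 in the Anti-CD8 libraries. Its part in the change was not tested. In that class 1 of 8 members had an unadjusted p under 0.05, against 2.31% of all genes. The vessel genes of endothelial-like cells had a p above that, with Tfrc between -0.75 and 0.32, Slc40a1 at 0.23 (-0.01 to 0.47) and Cp at -0.16 (-0.33 to 0.01). The ferritin ratio did not overlap between the groups in 6 of 16 classes, each at the smallest exact two-sided permutation p that 2 against 2 allow (0.33). Relabelled libraries would lie apart at that same rate, so the count is not read as a response. It was lower with Anti-CD8 in 5 (ependymal-like, neuron-like and fibroblast-like cells, clusters 21 and 22) and higher in 1 (NK-cell-like). The myeloid RNA estimate was 48.5% to 81.0% of the observed Ftl1 in those 5.

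Neuron-like cells had more members at an unadjusted p under 0.05 than any other class. Ftl1 was 561 and 598 CPM in the IgG libraries and 1192 and 867 in the Anti-CD8 libraries, a log2 fold change of 0.80 (SE 0.19, edgeR adjusted p = 0.0971), and 5 of 8 members had an unadjusted p under 0.05, against 9.95% of all genes. In the edgeR fit reported, 0.645% of all genes were called in this class. For the other settings named in this paragraph that share is not given, so calls under them are not read as a response. By DESeq2 Ftl1 was called here (0.79, DESeq2 adjusted p = 0.00324), and over 14 alternative settings its adjusted p ran from 0.000465 to 0.641. Slc40a1 had the largest change, at 5.53 and 3.78 CPM in the IgG libraries and 7.55 and 19.9 in the Anti-CD8 libraries (1.59, SE 0.49, edgeR adjusted p = 0.228). It rests on 14, 16, 20 and 60 UMIs, and its change was 0.67 without Anti-CD8 replicate 2 (edgeR adjusted p = 0.700). It was called without the low-count filter, with the replicate block (1.56, edgeR adjusted p = 0.0397), without IgG replicate 1 (0.00822) and without Anti-CD8 replicate 1 (0.0166). Myeloid transcripts were also higher there. The summed level of the microglia marker genes in neuron-like cells was 194 and 208 CPM in the IgG libraries and 327 and 442 in the Anti-CD8 libraries, that of the macrophage markers 433 and 491 against 988 and 901, and that of the Spp1-high genes 979 and 775 against 1727 and 1098. The myeloid RNA estimate was 14.2% of the observed Slc40a1 level in this class, against 58.2% for Fth1 and 63.6% for Ftl1. For Ftl1 it came to 332 and 370 CPM in the IgG libraries and 559 and 784 in the Anti-CD8 libraries. That estimate is scaled on microglia markers and does not cover RNA of vessel cells, where Slc40a1 was mainly found. No estimate of vessel RNA was made. The part of myeloid transcripts in the ferritin values, and of vessel RNA in Slc40a1, was not tested. T-cell-like cells had Fth1 at 2027 and 2255 against 2671 and 2535 CPM, a log2 fold change of 0.26 (SE 0.094, edgeR adjusted p = 0.277), with 1.14% of all genes called there and 2 of 5 members against 12.2% of all genes at an unadjusted p under 0.05. The class joins clusters 10 and 19 (the latter led by Il17a, Il23r and Trdc), and cluster 19 held 6.84% and 10.9% of its cells in the IgG libraries and 28.4% and 29.4% in the Anti-CD8 libraries. Within cluster 10 Fth1 was 1968 and 2129 against 2568 and 2426 CPM. Within cluster 19 it was 2920 and 3435 against 2975 and 2785, with overlap. The myeloid RNA estimate for Fth1 in T-cell-like cells was 27.5% of the observed level. It came to 589 and 540 CPM in the IgG libraries and 585 and 891 in the Anti-CD8 libraries, and its part in the change was not tested. Without doublet removal Fth1 and Ftl1 were called in T-cell-like cells, both at 0.66 (edgeR adjusted p = 0.0182 and 0.021), and the p of Fth1 ran up to 0.788 over the settings.

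**Figure D5:**
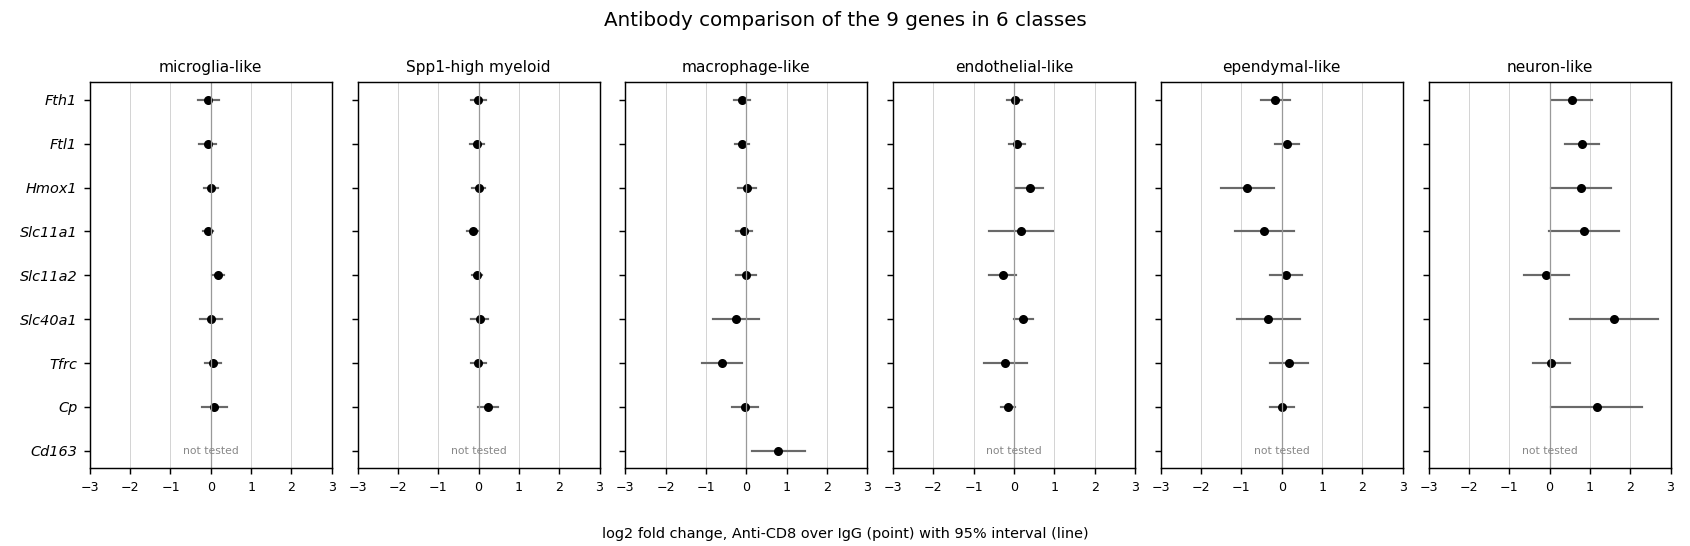
Panels are 6 classes, rows the 9 genes, and the horizontal axis is the log2 fold change of Anti-CD8 over IgG, with a point for the estimate and a line for its 95% interval. Intervals are narrow around 0 in microglia-like and Spp1-high cells (Fth1 -0.32 to 0.20 in the former), and no gene was called in any panel.

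The companion lists gave the same count. Of the genes tested in microglia-like, Spp1-high, macrophage-like and endothelial-like cells, none of the 5 lists (iron uptake and movement, iron sensing, haem synthesis, haem uptake with export and breakdown, NRF2 targets with ferroptosis defence) had a called gene in either direction. DESeq2 called 2 companion genes over all classes, again without the share of all genes beside it. In microglia-like cells 3 of 16 NRF2 and ferroptosis genes and 3 of 15 iron uptake genes had an unadjusted p under 0.05, against 8.44% of all genes. The smallest p of the former list belonged to Txnrd1, a thioredoxin reductase, at 0.23 (SE 0.070, edgeR adjusted p = 0.537). In the iron uptake list it belonged to Lcn2, which binds iron-loaded siderophores, at -5.06 (SE 1.66, edgeR adjusted p = 0.564). That value rests on IgG replicate 1, with 15.3 CPM against 0.0591, 0.275 and 0.209 in the other libraries. In endothelial-like cells the smallest p of the NRF2 and ferroptosis list belonged to Slc7a11, at 1.30 (SE 0.37, edgeR adjusted p = 0.998), and in the iron sensing list to Smad7, at -0.31 (SE 0.087). The 8 haem synthesis genes had median log2 changes of -0.09 in microglia-like cells, -0.04 in Spp1-high cells and -0.13 in endothelial-like cells, beside all-gene medians of -0.0006, -0.0005 and 0.0008, and none of them had an unadjusted p under 0.05 in these classes.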

How the data were processed

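Droplet-based 3′ RNA sequencing was run on 4 libraries. The files deposited by the authors hold raw UMI counts, per gene and cell, not normalised, and come from Cell Ranger 7.1.0 on GRCm39, per the submitters' processing notes. Which annotation release was used is not given in the sources used here. Of 29956 barcodes, 27695 were analysed, after those under 300 genes or over 20% mitochondrial UMIs and those with the top doublet scores (0.8% for each 1000 barcodes) were left out. Clustering used scanpy 1.11.5 with leidenalg 0.10.2 (3000 variable genes, 30 components, 15 neighbours, resolution 1). The 9 genes, the companion lists and ferritin pseudogenes were kept out of the variable genes, as were Cd8a and Cd8b1, sex-linked, mitochondrial, T cell receptor and immunoglobulin genes. A cluster took a name where its markers averaged a log2 fold of 1.5 or more, with a margin of 0.3. A cluster with more immunoglobulin genes than own markers among its 10 leading genes stayed unnamed. Among myeloid clusters, the highest on the macrophage list was named macrophage-like, and the rest by whether microglia or Spp1-high genes scored higher.

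Sums of counts over the cells of a library in a class (at least 20 cells in every library) or myeloid cluster (at least 50) were tested with edgeR 4.0.16 in R 4.3.3 (TMM scaling, its expression filter, quasi-likelihood test, Benjamini-Hochberg over all genes tested), with DESeq2 1.42.0 as an alternative. SE is the absolute log2 fold change over the square root of F. In counts simulated for microglia-like cells, 97.0% of genes changed 2-fold and 53.0% of those changed 1.5-fold were called. The simulation gave all genes the same spread between libraries and placed changes only in genes with many counts. Spread differs between genes in the real libraries, so these shares do not give the sensitivity for the 9 genes. Shares were read in cells thinned to 2000 UMIs. The text names the 9 genes, their 3 nearest genes by correlation and, in each companion list, called genes or the smallest p, beside genes said to be chosen after their values were seen. The members and lists were chosen with earlier results of these data known.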

Additional observations from a re-analysis of the deposited data

Results flagged for a closer look

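Levels of the 9 genes in classes that were too small for the antibody comparison gave 2 values above those of every tested class. Slc40a1 stood at a mean of 463.3 CPM in the neutrophil-like cluster, from 16 cells in the 4 libraries (1, 4, 5 and 6), with 7, 10, 18 and 13 UMIs. The myeloid RNA estimate came to 0.170% of it. Cp stood at a mean of 1697 CPM in the fibroblast-like cluster, from 46 cells, with a UMI in 37 of them after thinning to 2000 UMIs. Both are levels of few cells and were not tested between antibodies.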

How the results depend on the processing

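Where each gene was highest, the shares in thinned cells and the ferritin ratio kept to the values reported within 1 SD, or in 1.5 times the count, under the alternatives tried for them (cell filters, doublets, clustering, thinning to 1000 or 5000 UMIs, pseudogene UMIs added, a library left out). Hmox1 moved between microglia-like and Spp1-high cells as the highest class, whose ranges overlap. The check of the highest class did not cover cluster 12 or the neutrophil-like and fibroblast-like clusters. Their top levels of Fth1 and Ftl1, of Slc40a1 and of Cp were thus not tried in that check. The count of members called in a class was 0 as reported, 1 with DESeq2, 4 without the low-count filter, 2 without doublet removal and 1 to 2 with a library left out (1 without IgG replicate 2). With the replicate block it was 2, Ftl1 (0.79) and Slc40a1 (1.56) in neuron-like cells, and the block changed no other call of a member. Replicate numbers are not said to pair samples, and deviations of same-numbered libraries correlated from -0.028 to 0.341 over classes, so the block says little. Companion genes called were 0 as reported, 2 with DESeq2, 15 without the low-count filter, 6 with the replicate block, 1 to 10 with a library left out, and 2 each with the stricter cell filter, at resolution 2 and with members among the variable genes. In myeloid clusters the count was 2 without IgG replicate 1 (Fth1 and Ftl1 in cluster 18, 0.41 and 0.44), 1 without IgG replicate 2 (Cp in cluster 11, -0.75) and 0 without either Anti-CD8 replicate, a range of 0 to 2. For the difference between classes it ran from 0 to 1, with 1 without IgG replicate 2 (Slc11a2, -0.30) and 1 without Anti-CD8 replicate 2 (Fth1 in macrophage-like against microglia-like cells, -0.18, which was 0.05 at the other end of its range). With a library left out, the lone library of its arm was assumed to vary like the others. Fth1 in the unnamed cluster 22, led by immunoglobulin genes together with Cd209a and MHC class II genes, was called at -0.92 without IgG replicate 1 and -0.80 without Anti-CD8 replicate 2. The cause of these shifts was not tested. The share of all genes called under each alternative is not given here. The counts of called members and companions therefore cannot be set against it and are not read as a response of these genes. The limit on a share of cells with a UMI covers counting error only, and levels under about 10 CPM in small classes rest on few UMIs.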
